A study of Mus musculus with 8 samples.

Results

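The genes described here encode the inducible brakes on mitogen-activated protein kinase (MAPK) signalling: the dual-specificity phosphatases Dusp1, Dusp2, Dusp4, Dusp5, Dusp6, Dusp10 and Dusp16, and the Sprouty-family inhibitors Spry1, Spry2 and Spred1. A probe belonged to a gene where the transcript accession in the array files matched that gene in RefSeq's table for the mouse assembly GRCm38.p6. Of the 10 genes, 9 had a probe matched in this way and all 9 passed the filter on dim probes, among 15203 genes that passed it. No probe was matched to Dusp5, so its level is not analysed here. Whether the array holds a Dusp5 probe under another accession was not tested. The 9 genes were covered by 11 probes, and a gene with more than 1 probe was represented by its brightest.

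RAW 264.7, a mouse macrophage-like cell line, was exposed for 6 hours to *Bacillus clausii*, *Bifidobacterium bifidum* or *Lactobacillus acidophilus*, each at a multiplicity of infection of 1, and compared with time-matched untreated RAW 264.7 cells. Each two-colour array carried RNA of treated cells in Cy5 and RNA of untreated cells in Cy3, so its log2 ratio is treated over untreated. There were 3 arrays for *B. clausii*, 3 for *B. bifidum* and 2 for *L. acidophilus*, on 2 slides. On slide 2 were the arrays numbered 1 and 2 of both *B. clausii* and *B. bifidum*. Slide 1 held replicate 3 of *B. clausii*, replicate 3 of *B. bifidum* and both arrays of *L. acidophilus*. The design text calls the replicates biological, but no label ties an array to a culture of its own, so the p-values measure how far these arrays differ, a spread that may be technical. Dyes were never swapped, and a dye effect of a probe is therefore part of its ratio.

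MAPK pathways pass a signal through a chain of kinases to ERK, JNK and p38, which are switched on by phosphorylation of a threonine and a tyrosine. Dual-specificity phosphatases remove both phosphates, and many of their genes are themselves switched on by the pathway, which makes them negative feedback regulators. Sprouty and Spred proteins act further up, between the receptor and Ras or Raf. In macrophages these brakes are known for limiting the cytokine response to bacterial products.

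The slides differed in ways that touch every gene below. Slide 1 was scanned over an extended range and had 0 saturated probes, while the arrays of slide 2 had between 75 and 106; no probe of a brake gene was saturated on any array. Between 21508 and 26473 probes were above background on 7 arrays, and 12543 on replicate 3 of *B. clausii*, an array of slide 1 whose grid the scanner software did not rate as good. The Cy3 channel was well above background on all 8 arrays for 5 of the 7 macrophage markers with a matched probe, Adgre1, Csf1r, Lyz2, Spi1 and Mpeg1. Among markers of other cells this held for 0 of 4 for T cells, 0 of 3 for B cells, 1 of 2 for neutrophils, 0 of 3 for fibroblasts and 0 of 3 for epithelial cells.

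Across all 8 arrays none of the 9 brake genes passed in any comparison of a strain with untreated cells or between strains. The test was limma with Benjamini-Hochberg adjustment over all genes and a threshold of 0.05, and the share of all genes that passed was 4.77% for *B. clausii*, 1.72% for *B. bifidum*, 0% for *L. acidophilus* and 0.0263% for *B. clausii* against *B. bifidum*. At an unadjusted p under 0.05 the same fits gave 4666, 2878, 1103 and 1797 genes. The median log2 ratio over the 9 genes was 0.01 with *B. clausii*, 0.02 with *B. bifidum* and 0.10 with *L. acidophilus*, against medians over all genes of -0.01, -0.01 and 0.01. The 0 of 9 depended on the slide 1 arrays. Without replicate 3 of *B. clausii*, its ratio passed for Dusp6 (-1.48, limma adjusted p = 0.000784), Dusp4 (0.86, limma adjusted p = 0.000233) and Spry2 (0.46, limma adjusted p = 0.0158), and *B. clausii* minus *B. bifidum* passed for Dusp6 (-1.30, limma adjusted p = 0.00762) and Dusp4 (0.84, limma adjusted p = 0.00191). Without replicate 3 of *B. bifidum*, its ratio passed for Dusp2 (-0.88, limma adjusted p = 0.0138) and Spred1 (-0.51, limma adjusted p = 0.0167), and that of *B. clausii* for Dusp1 (0.23, limma adjusted p = 0.0431) and Spry2 (0.35, limma adjusted p = 0.0422). Without replicate 3 of *B. clausii*, 5479 of 15203 genes passed with *B. clausii* and 2130 for *B. clausii* minus *B. bifidum*. Without replicate 3 of *B. bifidum*, 2088 passed with *B. bifidum* and 1709 with *B. clausii*. No brake gene passed without any of the other 6 arrays. In the plot of ratios by array the slide 2 arrays of a strain lay close together and, for Dusp2 and Dusp6 with both strains, Dusp4 with *B. clausii* and Spred1 with *B. bifidum*, apart from its slide 1 array.

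**Figure D1:**
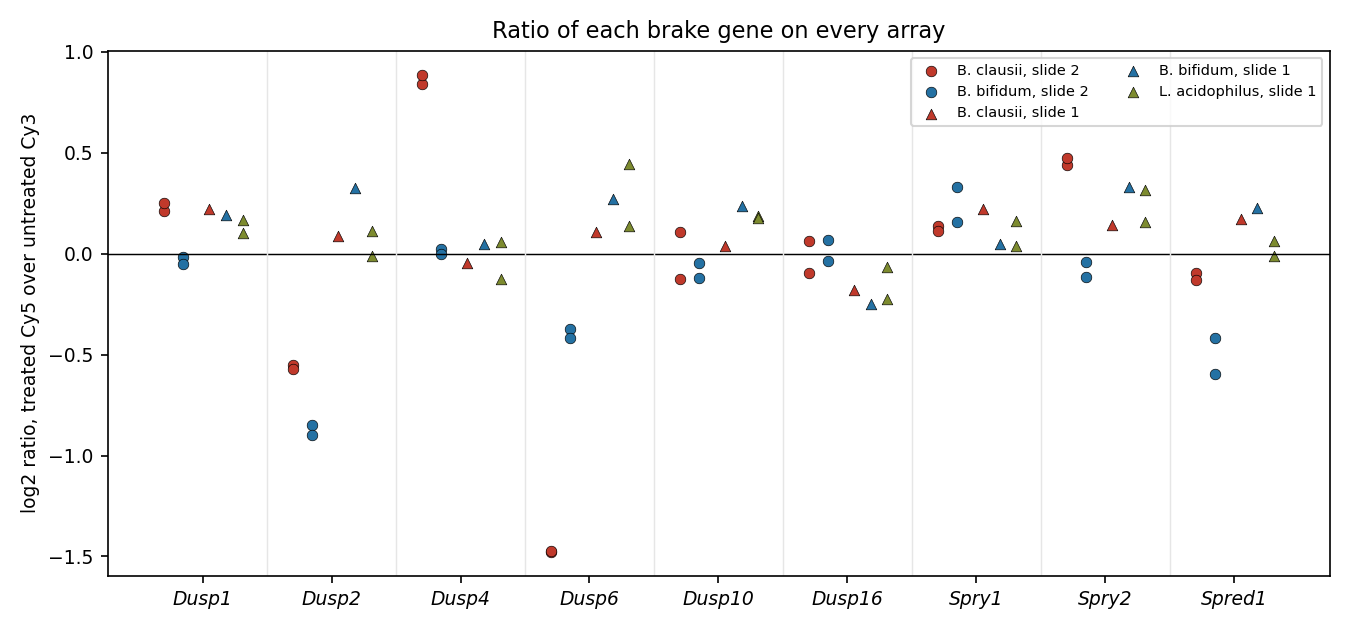
Log2 ratio of treated (Cy5) over untreated (Cy3) cells for 9 brake genes, with a point for each array: circles are slide 2, triangles slide 1, and colours the strain. On slide 2 the *B. clausii* points of Dusp6 lie at -1.48 and -1.47 and those of Dusp4 at 0.84 and 0.89, while on slide 1 no array of Dusp6 or Dusp4 lies beyond 0.45 from 0.

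The slides were therefore also taken apart, with a mean for each strain on each slide and the spread estimated over all arrays. Each slide 2 value rests on 2 arrays of a strain. With *B. clausii* on slide 2, Dusp4, Spry2 and Dusp1 rose and Dusp6 and Dusp2 fell. With *B. bifidum* on slide 2, Spry1 rose and Dusp2, Spred1 and Dusp6 fell. Passing was common on that slide: 56% of all genes passed with *B. clausii* (25.3% higher, 30.7% lower) and 40.3% with *B. bifidum* (15.6% higher, 24.7% lower), so 5 of 9 and 4 of 9 brake genes are close to the share of all genes. In RNA from whole cultures, fewer cells that express a gene and less of its RNA per cell cannot be told apart.

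The promoters of 3 of these phosphatase genes are shown because Dusp6 and Dusp2 fell with both strains on slide 2, whereas Dusp1, the classic early-response phosphatase gene, did not. Each is the 250 bases before the RefSeq transcription start in GRCm38.p6, 5′ to 3′ on the gene's strand, at chr10:99262981-99263230 on the plus strand for Dusp6, chr2:127335909-127336158 on the plus strand for Dusp2 and chr17:26508473-26508722 on the minus strand for Dusp1. Capitals mark matches to the cyclic AMP response element TGACGTCA or its shorter core TGACG, searched on both strands.
Dusp6: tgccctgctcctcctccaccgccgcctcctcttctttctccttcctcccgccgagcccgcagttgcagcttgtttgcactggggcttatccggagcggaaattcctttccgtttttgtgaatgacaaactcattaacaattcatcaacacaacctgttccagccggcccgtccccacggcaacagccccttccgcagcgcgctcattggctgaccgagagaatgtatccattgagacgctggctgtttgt
Dusp2: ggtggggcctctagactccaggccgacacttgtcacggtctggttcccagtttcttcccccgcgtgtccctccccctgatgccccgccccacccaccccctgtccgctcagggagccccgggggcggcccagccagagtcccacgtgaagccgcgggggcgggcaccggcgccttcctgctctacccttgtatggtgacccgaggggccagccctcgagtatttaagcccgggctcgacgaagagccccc
Dusp1: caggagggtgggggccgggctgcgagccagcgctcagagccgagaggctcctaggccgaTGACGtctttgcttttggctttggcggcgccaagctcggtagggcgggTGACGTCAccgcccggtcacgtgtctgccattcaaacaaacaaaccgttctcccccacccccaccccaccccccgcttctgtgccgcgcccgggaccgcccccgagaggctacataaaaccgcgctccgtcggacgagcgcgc
The Dusp1 window held 1 full element, which 1.55% of 32851 RefSeq promoter windows of this length held, and 3 matches to the shorter core, a pair of them the overlapping strands of the full element; 17.8% of windows held the core. The Dusp6 and Dusp2 windows held no match to either, to the AP-1 site TGANTCA (in 6.75% of windows), to the ETS core CCGGAA (12.0%) or to the CArG box bound by serum response factor (1.47%). Windows were found for 9 of the 10 genes. Those of Dusp10, Spred1, Spry1 and Spry2 also held no match to any of these sites. Of these, on slide 2 Spry2 rose with *B. clausii*, Spry1 rose and Spred1 fell with *B. bifidum*, and Dusp10 did not pass. Dusp16, which did not pass either, and Dusp5 each held 1 match to the shorter core. Whether the matches bear on the ratios was not tested. The unmeasured Dusp5 was the only gene of the 9 with a CArG box, with 2 matches.

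Dusp6, the cytoplasmic phosphatase that acts on ERK, had the largest fall among the 9 genes on slide 2, with *B. clausii*. On slide 2 its log2 ratio was -1.48 and -1.47 with *B. clausii*, and -0.37 and -0.42 with *B. bifidum*. The slide 1 ratios were 0.11 with *B. clausii*, 0.27 with *B. bifidum*, and 0.14 and 0.45 with *L. acidophilus*. All 4 slide 2 ratios were below 0 and all 4 slide 1 ratios above it, without overlap between slides, and on slide 2 the *B. clausii* pair lay below the *B. bifidum* pair.

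On slide 2 the fitted log2 ratio of Dusp6 was -1.48 ± 0.07 (SE) with *B. clausii*, 2.78-fold lower than in untreated cells (limma adjusted p = 3.27e-05), and -0.40 ± 0.07 with *B. bifidum*, 1.32-fold lower (limma adjusted p = 0.00635). The *B. clausii* value passed under all 9 alternatives run for slide 2, 4 of them leaving out 1 slide 2 array, between -2.16 and -1.47. The *B. bifidum* value passed under 6 of 9 and not with the scanner's processed signals (-0.29, limma adjusted p = 0.0944), without its replicate 1 (-0.42, limma adjusted p = 0.0653) or without its replicate 2 (-0.37, limma adjusted p = 0.0707). *B. clausii* minus *B. bifidum* was -1.08 ± 0.10 on the log2 scale (limma adjusted p = 0.000803), in a comparison that 31.3% of all genes passed (15.8% higher, 15.6% lower).

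The brightness of the Dusp6 spot before normalization is shown beside that of Dusp4. On slide 2 the median Cy5 intensity of Dusp6 was 587 and 615 with *B. clausii*, and 1607 and 978 with *B. bifidum*, against Cy3 intensities of 3338, 3278, 3274.5 and 1972.5 for the untreated cells on the same arrays. The Cy5 spot was the dimmer on all 4. That also held for Dusp4, whose normalized ratio rose with *B. clausii*, so a dimmer Cy5 spot there is not particular to Dusp6. On slide 1 the Cy5 and Cy3 intensities of Dusp6 were 92659.1 and 67364.6, and 66705.3 and 40319.3, with *L. acidophilus*. They were 51011.2 and 57074.5 with *B. bifidum*, and 1817.5 and 2449.5 on replicate 3 of *B. clausii*, the array with the fewest probes above background.

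**Figure D2:**
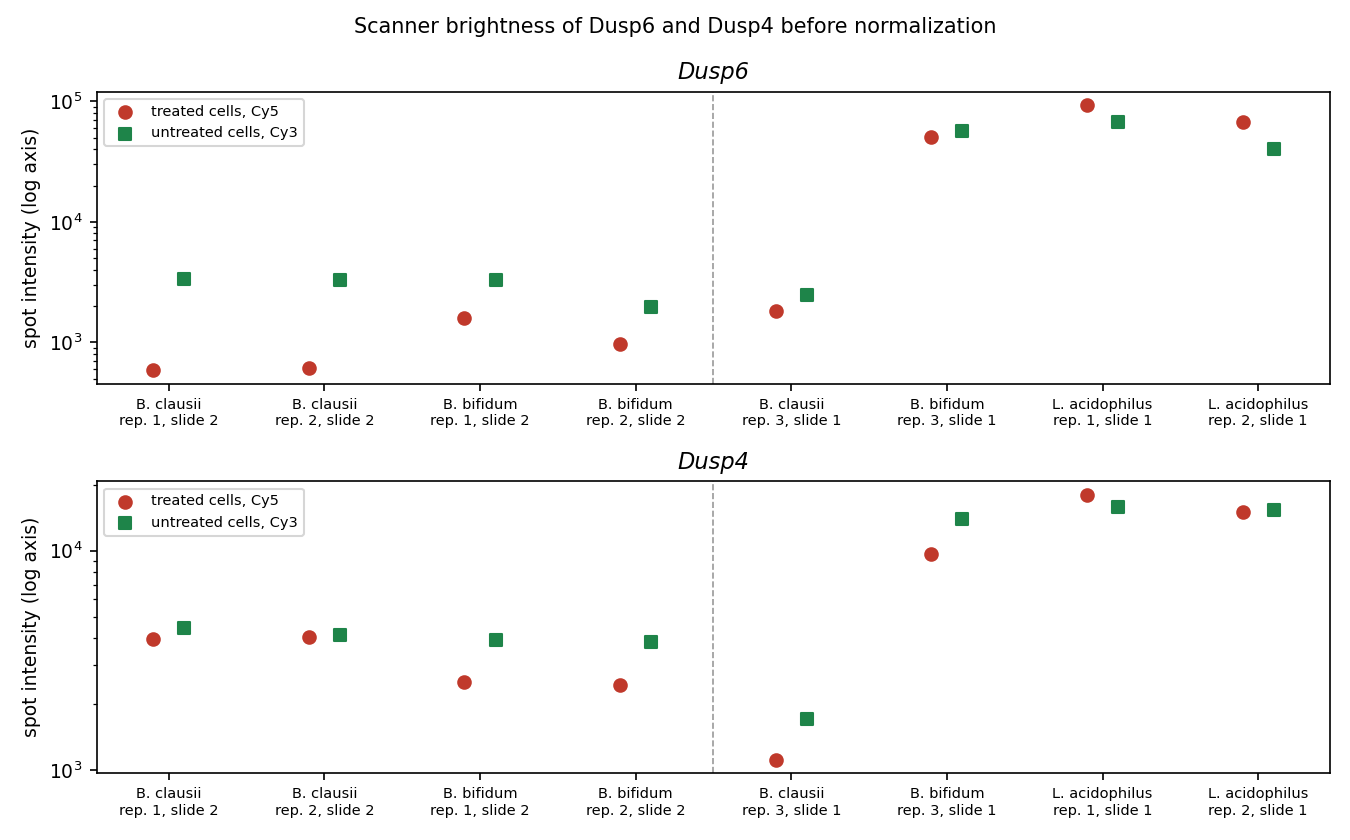
Median spot intensity (log axis) of Dusp6 above and Dusp4 below on each array, for treated cells in Cy5 (circles) and untreated cells in Cy3 (squares), with slide 2 left of the dashed line and slide 1 right of it. Cy5 of Dusp6 on slide 2 was 587 and 615 with *B. clausii* against Cy3 of 3338 and 3278, while Dusp4 gave 3957 and 4031 in Cy5 against 4454 and 4140 in Cy3.

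Dusp4, a nuclear phosphatase that acts on ERK and JNK, rose with *B. clausii* on slide 2. Its log2 ratio on slide 2 was 0.84 and 0.89 with *B. clausii*, and 0.02 and -0.00 with *B. bifidum*. Slide 1 gave -0.04 with *B. clausii*, 0.05 with *B. bifidum*, and 0.06 and -0.12 with *L. acidophilus*. The *B. clausii* pair on slide 2 stood above all 6 other arrays, which lay around 0.

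On slide 2 the fitted value of Dusp4 was 0.86 ± 0.05 with *B. clausii*, 1.82-fold higher than in untreated cells (limma adjusted p = 6.05e-05), and 0.01 ± 0.05 with *B. bifidum* (limma adjusted p = 0.901). Before normalization the Dusp4 Cy5 spot was dimmer than Cy3 on the *B. clausii* arrays of slide 2, at 3957 and 4031 against 4454 and 4140. The rise is therefore one of the normalized ratio. *B. clausii* exceeded *B. bifidum* by 0.85 ± 0.08 (limma adjusted p = 0.000643). With median centring in place of loess the *B. clausii* value was 0.19 and did not pass (limma adjusted p = 0.585), the *B. bifidum* value turned to -0.90 (limma adjusted p = 0.011), and the difference between strains was 1.09 but did not pass (limma adjusted p = 0.476). That setting leaves the dependence of the ratio on brightness in place and moved the median of all genes on slide 2 to -0.30 with *B. clausii* and -0.42 with *B. bifidum*; against those medians Dusp4 lay above with *B. clausii* and below with *B. bifidum*.

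Dusp2, a nuclear phosphatase found mainly in blood cells, fell with both strains on slide 2. Its log2 ratio there was -0.55 and -0.57 with *B. clausii*, and -0.85 and -0.90 with *B. bifidum*. On slide 1 it was 0.09 with *B. clausii*, 0.32 with *B. bifidum*, and -0.01 and 0.11 with *L. acidophilus*. The slides did not overlap, and the order of the strains on slide 2 was the opposite of that of Dusp6.

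The fitted slide 2 value of Dusp2 was -0.56 ± 0.05 with *B. clausii*, 1.48-fold lower (limma adjusted p = 0.000163), and -0.88 ± 0.05 with *B. bifidum*, 1.83-fold lower (limma adjusted p = 9.83e-05). Both passed under all 9 settings, between -1.24 and -0.55 with *B. clausii* and between -1.78 and -0.82 with *B. bifidum*. *B. clausii* lay above *B. bifidum* by 0.31 ± 0.07 (limma adjusted p = 0.0137), which passed under 4 of 9 settings and kept its sign in all of them, between 0.22 and 0.54. It did not pass without replicate 1 or 2 of *B. clausii* or replicate 2 of *B. bifidum*, at limma adjusted p between 0.0539 and 0.0702. On slide 1, where 12.6% of all genes passed with *B. bifidum* from its lone array, Dusp2 was at 0.32 ± 0.07 (limma adjusted p = 0.0301). The spread behind that p is borrowed from the groups with a pair of arrays on a slide, and no replicate backs the value. No brake gene passed there from the lone array of *B. clausii*, with which 3.21% of all genes did.

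Dusp1, a nuclear phosphatase that acts mainly on p38 and JNK, moved little. Its log2 ratio on slide 2 was 0.21 and 0.25 with *B. clausii*, and -0.02 and -0.05 with *B. bifidum*. The slide 1 arrays read 0.22 with *B. clausii*, 0.19 with *B. bifidum*, and 0.10 and 0.16 with *L. acidophilus*. The 3 *B. clausii* arrays lay above the other 5, by a small margin over the slide 1 arrays.

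The slide 2 value of Dusp1 with *B. clausii* was 0.23 ± 0.04 (limma adjusted p = 0.00401), a 1.17-fold rise, and with median centring it turned to -0.41 (limma adjusted p = 0.153). The *B. bifidum* value was -0.03 ± 0.04 (limma adjusted p = 0.566). The difference between the strains was 0.27 ± 0.06 (limma adjusted p = 0.0167) and passed under 3 of 9 settings, with the same sign in all, between 0.23 and 0.35. It did not pass without any of the 4 slide 2 arrays in turn, at limma adjusted p between 0.0502 and 0.0877.

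Dusp10 and Dusp16, phosphatases of JNK and p38, did not pass with either strain on slide 2. The log2 ratio of Dusp10 there was -0.12 and 0.11 with *B. clausii*, and -0.05 and -0.12 with *B. bifidum*, and its Cy5 spot was not well above background on any slide 2 array, so these ratios hold no measured treated level. Slide 1 gave 0.04 with *B. clausii*, 0.24 with *B. bifidum*, and 0.19 and 0.18 with *L. acidophilus*. The log2 ratio of Dusp16 was -0.10 and 0.06 with *B. clausii* and 0.07 and -0.04 with *B. bifidum* on slide 2, and on slide 1 it was -0.18 with *B. clausii*, -0.25 with *B. bifidum*, and -0.07 and -0.22 with *L. acidophilus*. For Dusp16 the pairs of the 2 strains overlapped on slide 2.

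Among the Sprouty-family genes, Spry2, an inhibitor of receptor tyrosine kinase signalling to ERK, rose with *B. clausii* on slide 2. Its log2 ratio was 0.44 and 0.48 with *B. clausii* and -0.12 and -0.04 with *B. bifidum* on slide 2, and on slide 1 it was 0.14 with *B. clausii*, 0.33 with *B. bifidum*, and 0.32 and 0.16 with *L. acidophilus*. The *B. clausii* pair on slide 2 was the highest and the *B. bifidum* pair the lowest, with slide 1 between them.

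The slide 2 value of Spry2 was 0.46 ± 0.05 with *B. clausii* (limma adjusted p = 0.000584), 1.37-fold higher, and -0.08 ± 0.05 with *B. bifidum* (limma adjusted p = 0.285); with median centring the first was 0.11 and did not pass (limma adjusted p = 0.667). The strains differed by 0.54 ± 0.07 (limma adjusted p = 0.00282). The dimmer of the 2 Spry2 probes gave 0.12 ± 0.07 with *B. clausii* on slide 2 and did not pass among all probes fitted on their own (limma adjusted p = 0.217), so the probes disagree. On slide 1 Spry2 was higher with *L. acidophilus* at 0.24 ± 0.05 (limma adjusted p = 0.0393), where 12.2% of all genes passed. The lone *B. bifidum* array of that slide gave 0.33 ± 0.07 (limma adjusted p = 0.0396), again with the spread of other groups and no replicate.

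Spred1, which recruits the Ras inhibitor neurofibromin to the membrane, fell with *B. bifidum* on slide 2. Its log2 ratio was -0.10 and -0.13 with *B. clausii* and -0.60 and -0.42 with *B. bifidum* on slide 2, and on slide 1 it was 0.17 with *B. clausii*, 0.22 with *B. bifidum*, and 0.06 and -0.01 with *L. acidophilus*. The *B. bifidum* pair on slide 2 lay below all other arrays, and neither channel was well above background on replicate 3 of *B. clausii*.

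The slide 2 value of Spred1 was -0.51 ± 0.05 with *B. bifidum*, 1.42-fold lower (limma adjusted p = 0.000748), and passed under all 9 settings, between -0.91 and -0.30. With *B. clausii* it was -0.11 ± 0.05 (limma adjusted p = 0.124), and *B. clausii* exceeded *B. bifidum* by 0.39 ± 0.08 (limma adjusted p = 0.0109), a call lost without replicate 1 of *B. clausii* (0.38, limma adjusted p = 0.0546). The dimmer Spred1 probe gave -0.09 ± 0.07 with *B. bifidum* on slide 2 and did not pass among all probes (limma adjusted p = 0.372).

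Spry1, the other Sprouty inhibitor measured, had log2 ratios of 0.14 and 0.11 with *B. clausii* and 0.33 and 0.16 with *B. bifidum* on slide 2. On slide 1 they were 0.22 with *B. clausii*, on an array where neither channel was well above background, 0.05 with *B. bifidum*, and 0.04 and 0.16 with *L. acidophilus*. All 8 ratios were above 0 and the strains overlapped. The slide 2 value with *B. bifidum* was 0.24 ± 0.06 (limma adjusted p = 0.0165), did not pass without its replicate 1 (0.16, limma adjusted p = 0.18), and turned to -0.14 with median centring (limma adjusted p = 0.58).

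**Figure D3:**
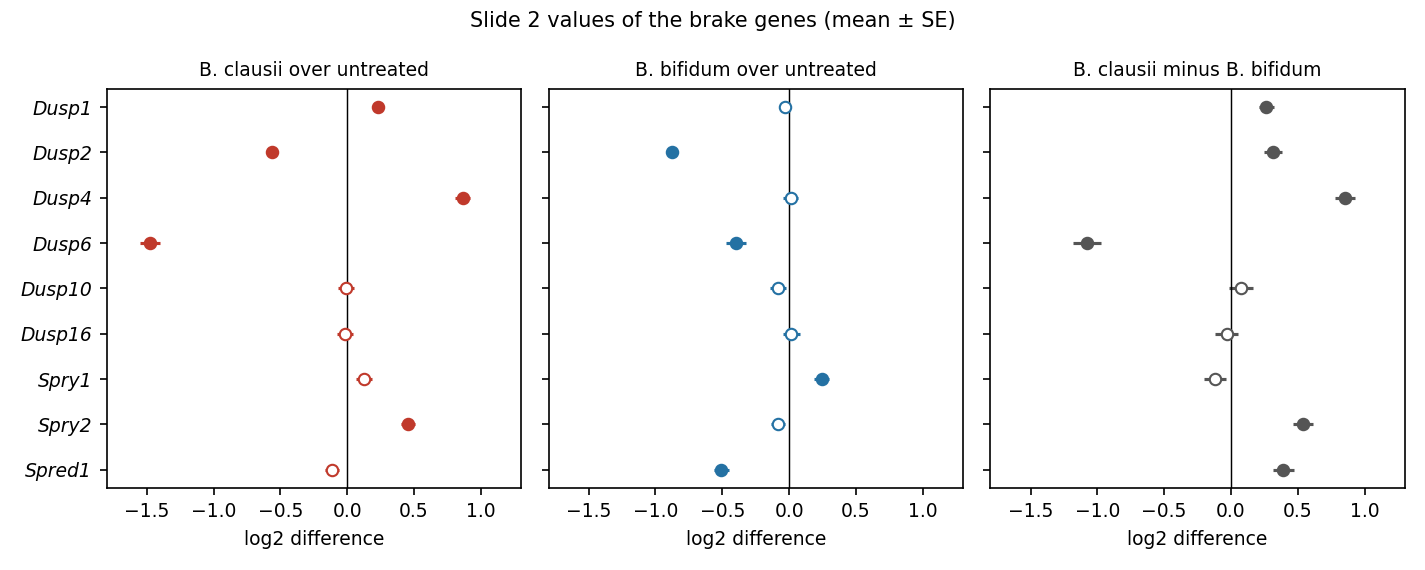
Fitted slide 2 log2 values of 9 brake genes (points, with SE bars), for *B. clausii* over untreated cells, *B. bifidum* over untreated cells, and *B. clausii* minus *B. bifidum*; filled points passed a limma adjusted p of 0.05 over all genes. Dusp6 reads -1.48, -0.40 and -1.08, Dusp2 -0.56, -0.88 and 0.31, and Dusp4 0.86, 0.01 and 0.85 from left to right.

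On slide 2 *B. clausii* thus exceeded *B. bifidum* for Dusp4, Spry2, Spred1, Dusp2 and Dusp1 and lay below it for Dusp6, 6 of 9 genes against 31.3% of all genes. With median centring none of these 6 differences passed, at limma adjusted p between 0.476 and 0.983 while 4 of all genes passed, but their values were 1.09 for Dusp4, -0.91 for Dusp6, 0.54 for Dusp2, 0.44 for Spry2, 0.39 for Spred1 and 0.35 for Dusp1, each with the sign it had under loess. With the replicate number as a block over all 8 arrays, *B. clausii* values passed for Dusp6 at -0.95 ± 0.13 (limma adjusted p = 0.00489), Dusp4 at 0.56 ± 0.13 (limma adjusted p = 0.0228), Dusp2 at -0.35 ± 0.09 (limma adjusted p = 0.0298) and Dusp1 at 0.23 ± 0.06 (limma adjusted p = 0.0326). Under the same block the *B. bifidum* value passed for Dusp2 at -0.48 ± 0.09 (limma adjusted p = 0.0175). Of 15203 genes, 4330 passed under that block with *B. clausii* and 2267 with *B. bifidum*. Replicate numbers 1 and 2 of these strains are slide 2 and number 3 is slide 1, so the number and the slide cannot be told apart.

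With the slide itself as a block, *B. clausii* values passed for Dusp6 at -0.76 ± 0.13 (limma adjusted p = 0.00675), Dusp1 at 0.25 ± 0.06 (limma adjusted p = 0.0176), Dusp4 at 0.49 ± 0.13 (limma adjusted p = 0.0284) and Spry2 at 0.36 ± 0.10 (limma adjusted p = 0.0383), where 25.2% of all genes passed. With *B. bifidum* Dusp2 passed at -0.32 ± 0.08 (limma adjusted p = 0.042), where 14% did. With *L. acidophilus* no brake gene passed, where 2.74% did. That fit gives each strain the same shift between slides.

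The ratio differed between slides for 4 brake genes with each of *B. clausii* and *B. bifidum*. With *B. clausii*, slide 2 minus slide 1 was -1.58 ± 0.13 for Dusp6 (limma adjusted p = 0.000612), -0.65 ± 0.08 for Dusp2 (limma adjusted p = 0.00201), 0.91 ± 0.09 for Dusp4 (limma adjusted p = 0.00113) and 0.31 ± 0.09 for Spry2 (limma adjusted p = 0.037); 38.6% of all genes differed (16% higher, 22.6% lower). With *B. bifidum* the same difference was -1.20 ± 0.08 for Dusp2 (limma adjusted p = 0.000922), -0.73 ± 0.09 for Spred1 (limma adjusted p = 0.00316), -0.67 ± 0.13 for Dusp6 (limma adjusted p = 0.0109) and -0.41 ± 0.09 for Spry2 (limma adjusted p = 0.0187); 29.7% of all genes differed (12.4% higher, 17.3% lower). Each slide 1 value rests on 1 array.

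The slide differences of Dusp2 with both strains, of Dusp4 and Dusp6 with *B. clausii* and of Spred1 with *B. bifidum* lost their call with median centring, at limma adjusted p between 0.0509 and 0.654, and under no other alternative run. Their values with median centring were -1.20 and -1.95 for Dusp2 with *B. clausii* and *B. bifidum*, 0.38 for Dusp4, -2.13 for Dusp6 and -0.87 for Spred1, so only that of Dusp4 was nearer to 0. With that setting limma passed 38 of all genes for the *B. clausii* slide difference and 0 for that of *B. bifidum*, with 2735 and 2599 at an unadjusted p under 0.05, so no slide difference given below for another gene with *B. bifidum* passed under it. That of Dusp6 with *B. bifidum* also did not pass with the scanner's processed signals (-0.52, limma adjusted p = 0.127), with the authors' deposited table (-0.52, limma adjusted p = 0.125) or without replicate 2 of *B. bifidum* (-0.65, limma adjusted p = 0.0505). For Spry2 the shift was upward with *B. clausii* and downward with *B. bifidum*, but neither was stable. The *B. clausii* shift turned to -0.15 with the scanner's processed signals (limma adjusted p = 0.365) and did not pass with the mean of both probes (0.20, limma adjusted p = 0.0889), nor without replicate 1 or 2 of *B. clausii* or of *B. bifidum*, at limma adjusted p between 0.0562 and 0.106. The *B. bifidum* shift did not pass with the mean of both probes (-0.15, limma adjusted p = 0.211), with the processed signals (-0.47, limma adjusted p = 0.0695) or without its replicate 1 (-0.37, limma adjusted p = 0.0776).

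The Cy3 signal of untreated cells also differed between slides. The cells, their labelling, the hybridization and the scan range cannot be told apart as the source. The level, as log2 intensity quantile normalized between the 8 arrays, was lower on slide 2 for Dusp6, Dusp10 and Spry2 and higher for Spry1, where 26.6% of all genes differed (15.9% higher, 10.7% lower). The untreated level is the denominator of the ratio, so the level and the ratio share a measurement. Levels are set side by side only within a gene.

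Untreated Dusp6 on slide 2 was at 11.99 and 12.03 on the *B. clausii* arrays and 12.06 and 11.78 on the *B. bifidum* arrays. On slide 1 it was at 13.54 on the *B. clausii* array, 14.61 on the *B. bifidum* array, and 14.91 and 14.19 on the *L. acidophilus* arrays. The slides did not overlap, and slide 2 minus slide 1 was -2.35 ± 0.27, a 5.10-fold lower level (limma adjusted p = 0.000577). With median centring between arrays the difference was -2.55 and did not pass (limma adjusted p = 0.111), and without any 1 array it lay between -2.61 and -2.15 and passed each time.

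Untreated Spry2 was at 8.01, 8.01, 8.05 and 7.70 on slide 2, against 9.04, 9.10, 9.13 and 9.24 on slide 1, a difference of -1.19 ± 0.12 (limma adjusted p = 0.000323). The slides did not overlap, but with the mean of both Spry2 probes the difference was -0.26 (limma adjusted p = 0.0491), and with median centring it was -1.40 and did not pass (limma adjusted p = 0.193). Untreated Dusp10 was at 6.88, 6.63, 6.67 and 6.67 on slide 2, against 8.57, 7.91, 7.95 and 7.92 on slide 1, a difference of -1.38 ± 0.17 (limma adjusted p = 0.00087), near the dim end of the scale. Its probe was well above background in Cy3 on 3 of 4 arrays of each slide, and not on the slide 1 array at 8.57. Untreated Spry1 went the other way, at 7.94, 7.94, 7.75 and 8.35 on slide 2, against 6.15, 6.96, 6.95 and 6.82 on slide 1, a difference of 1.28 ± 0.22 (limma adjusted p = 0.00359). On slide 1 the Spry1 probe was well above background in Cy3 on 2 of 4 arrays, so its size there is uncertain.

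The other 5 brake genes did not pass in the untreated channel, with replicate 3 of *B. clausii* standing apart from the other slide 1 arrays for several. Untreated Dusp1 was between 10.10 and 10.44 on slide 2, against 12.66 on that array and 10.65 to 10.81 on the other 3 of slide 1, a difference of -0.96 ± 0.42 (limma adjusted p = 0.13). Without that array the difference was -0.49 and passed (limma adjusted p = 0.00404), as did 7993 of 15203 genes. Untreated Dusp16 was between 6.58 and 6.74 on slide 2, against 6.60 on that array and 7.87 to 7.98 on the other 3, a difference of -0.92 ± 0.30 (limma adjusted p = 0.0554), and without it -1.25 (limma adjusted p = 9.34e-06). In Cy3 the Dusp16 probe was well above background on 3 of 4 arrays of each slide, and not on replicate 3 of *B. clausii*. Dusp2 (-0.36 ± 0.21), Dusp4 (-0.24 ± 0.17) and Spred1 (0.36 ± 0.27) did not pass.

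**Figure D4:**
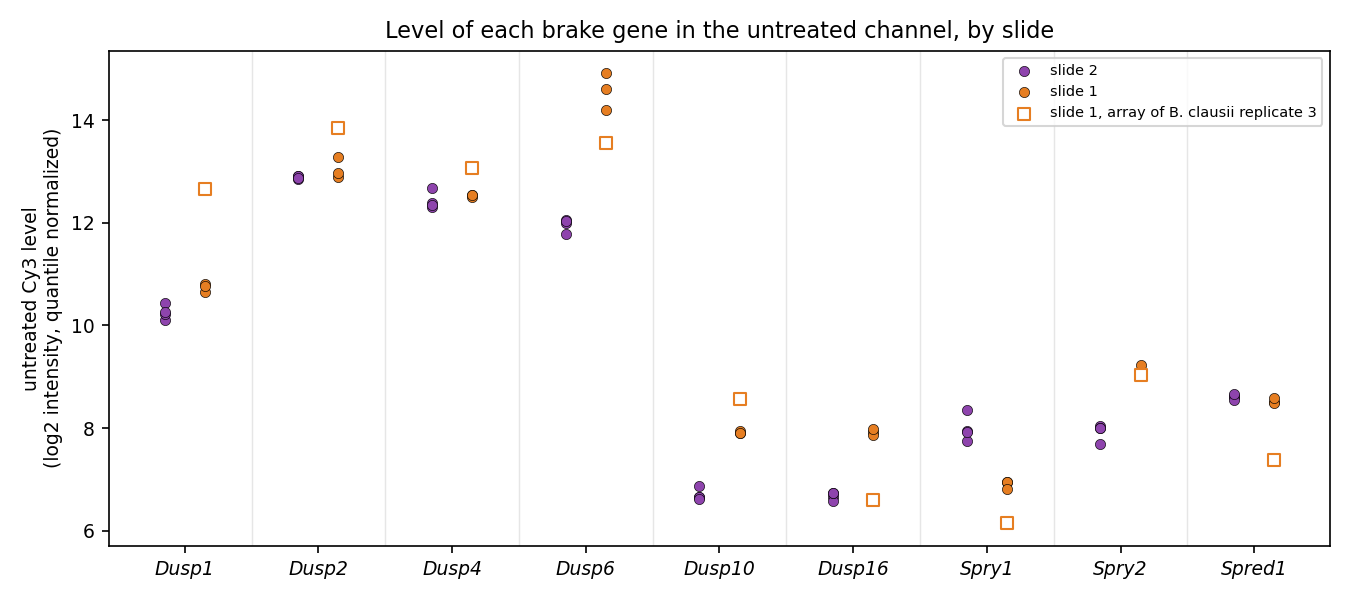
Untreated Cy3 level (log2 intensity, quantile normalized between arrays) of 9 brake genes, with slide 2 left of slide 1 and a point for each array; the open square is the slide 1 array of *B. clausii* replicate 3. Dusp6 lies between 11.78 and 12.06 on slide 2 and between 13.54 and 14.91 on slide 1, and levels may be compared within a gene only.

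The other genes of the pathway were read from lists of 14 further brakes, 14 genes that ERK signalling is known to switch on, 26 MAPK-cascade kinases and 16 genes between receptors and Ras, of which 11, 12, 25 and 15 were measured. Across all 8 arrays Phlda1, an ERK-induced gene, fell with *B. clausii* (-0.39 ± 0.07, limma adjusted p = 0.0372) and with *B. bifidum* (-0.52 ± 0.07, limma adjusted p = 0.0159). Dusp19, an atypical dual-specificity phosphatase, rose with *B. clausii* (0.34 ± 0.08, limma adjusted p = 0.049), and Dusp3, an atypical phosphatase of ERK and JNK, fell with *B. bifidum* (-0.42 ± 0.06, limma adjusted p = 0.0222). Those were 1 of 11 further brakes and 1 of 12 ERK-induced genes with each strain; of the kinases 0 of 25 passed, of the receptor-to-Ras genes 0 of 15, and with *L. acidophilus* no gene of the 4 lists. The share of all genes was 4.77% with *B. clausii*, 1.72% with *B. bifidum* and 0% with *L. acidophilus*. On slide 1 alone, some list genes did pass with *L. acidophilus*, where 12.2% of all genes passed. Of 11 further brakes 1 rose and 2 fell, and of 12 ERK-induced genes 1 rose and 3 fell. Of 25 kinases 4 rose and 3 fell, and of 15 receptor-to-Ras genes 0 rose and 1 fell.

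Phlda1 had log2 ratios of -0.38 and -0.32 with *B. clausii* and -0.62 and -0.40 with *B. bifidum* on slide 2. On slide 1 it had -0.47 with *B. clausii*, -0.54 with *B. bifidum*, and -0.44 on both *L. acidophilus* arrays. It was below 0 on all 8 arrays, on both slides, whereas Dusp6, Dusp2 and Dusp4 each had ratios on both sides of 0. As dyes were never swapped, a dye effect of the Phlda1 probe and a fall with every strain cannot be told apart. The untreated level of Phlda1 was between 8.62 and 9.14 on slide 2, against 11.09 to 13.34 on slide 1. That difference was -3.76 ± 0.49 (limma adjusted p = 0.000977), so the level behind the ratio was not steady. The sign of its ratio held under all alternatives for both strains. With each strain it passed under 7 of 11 processing settings, and not with the scanner's processed signals, the authors' deposited table, an intensity trend with robust eBayes or median centring, at limma adjusted p between 0.0633 and 0.119 for *B. clausii* and between 0.051 and 0.176 for *B. bifidum*. The call was lost without replicate 1 or 2 of either strain in turn for *B. clausii*, at limma adjusted p between 0.0734 and 0.336, and without replicate 1 or 2 of *B. bifidum* for *B. bifidum*, at limma adjusted p of 0.189 and 0.142; without either *L. acidophilus* array it was 0.0954 and 0.0571 for those strains. Dusp3 passed under 7 of 11 processing settings and Dusp19 under 3 of 11. Both passed in 2 of 8 fits with an array left out, those without replicate 3 of *B. clausii* or of *B. bifidum*, and Dusp19 turned to -0.068 with median centring (limma adjusted p = 0.785).

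On slide 2 alone, where 25.3% of all genes rose and 30.7% fell with *B. clausii* and 15.6% rose and 24.7% fell with *B. bifidum*, 3 of 11 further brakes rose and 1 fell with *B. clausii*, and 3 rose and 3 fell with *B. bifidum*. Of the ERK-induced genes 5 of 12 rose and 2 fell with *B. clausii*, and 2 rose and 4 fell with *B. bifidum*. Of the kinases 6 of 25 rose and 9 fell with *B. clausii*, and 8 rose and 3 fell with *B. bifidum*. Of the receptor-to-Ras genes 4 of 15 rose and 4 fell with *B. clausii*, and 2 rose and 8 fell with *B. bifidum*. The list medians on slide 2 lay between -0.15 and 0.13, against -0.01 over all genes for both strains.

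Among the further brakes, Dusp8, a phosphatase of JNK and p38, changed its direction between slides. Its log2 ratio was 1.55 and 1.51 with *B. clausii* and 1.70 and 1.76 with *B. bifidum* on slide 2, while the slide 1 values were -0.28 with *B. clausii*, -0.78 with *B. bifidum*, and -0.76 and -0.63 with *L. acidophilus*. The difference between slides was 1.81 ± 0.08 with *B. clausii* (limma adjusted p = 0.000225) and 2.51 ± 0.08 with *B. bifidum* (limma adjusted p = 0.000474). Dusp7, a cytoplasmic ERK phosphatase like Dusp6, was below 0 on all 8 arrays, at -1.44, -1.16, -1.07 and -1.05 on slide 2 against -0.14 to -0.45 on slide 1, and differed between slides by -1.15 ± 0.12 with *B. clausii* (limma adjusted p = 0.00126) and -0.85 ± 0.12 with *B. bifidum* (limma adjusted p = 0.00438). Dusp19 also differed with *B. clausii* (0.33 ± 0.08, limma adjusted p = 0.0186) and Dusp22 with *B. bifidum* (-0.57 ± 0.08, limma adjusted p = 0.00367).

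Among ERK-induced genes, Fos, an AP-1 subunit, had log2 ratios of -1.31 and -1.32 with *B. clausii* and -0.78 and -0.76 with *B. bifidum* on slide 2, against 0.30 to 0.44 on the 4 slide 1 arrays. Its slide difference was -1.72 ± 0.07 with *B. clausii* (limma adjusted p = 0.000152) and -1.21 ± 0.07 with *B. bifidum* (limma adjusted p = 0.000749). Ier3, an early-response gene that protects from cell death, separated the strains: 1.37 and 1.33 with *B. clausii* and -0.56 and -0.65 with *B. bifidum* on slide 2. Its slide difference was 1.27 ± 0.08 with *B. clausii* (limma adjusted p = 0.000445) and -1.05 ± 0.08 with *B. bifidum* (limma adjusted p = 0.00117). The zinc finger factor Egr2 differed by 0.74 ± 0.09 with *B. clausii* (limma adjusted p = 0.00211) and by -0.64 ± 0.09 with *B. bifidum* (limma adjusted p = 0.00457), and the AP-1 gene Fosl1 by 0.97 ± 0.12 with *B. bifidum* (limma adjusted p = 0.00264).

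Of the kinases, 6 of 25 lay higher on slide 2 and 6 lower with *B. clausii*, and 6 higher and 4 lower with *B. bifidum*. Of all genes 16% were higher and 22.6% lower with *B. clausii*, and 12.4% higher and 17.3% lower with *B. bifidum*. With *B. clausii* Mknk2, which phosphorylates a translation initiation factor, was lower on slide 2 (-0.98 ± 0.07, limma adjusted p = 0.00051), and Mapkapk2, the p38 effector kinase (0.82 ± 0.08, limma adjusted p = 0.000916), and Map3k1 (1.00 ± 0.10, limma adjusted p = 0.000971) were higher. With *B. bifidum* the p38-activating kinase Map2k3 (0.83 ± 0.07, limma adjusted p = 0.00127) and Mapkapk2 (0.86 ± 0.08, limma adjusted p = 0.00137) were higher and Mknk2 lower (-0.73 ± 0.07, limma adjusted p = 0.00159). Between receptor and Ras, 1 of 15 was higher and 2 lower with *B. clausii*, namely Hras (0.46 ± 0.07, limma adjusted p = 0.00322), the Ras inhibitor Rasa1 (-0.81 ± 0.10, limma adjusted p = 0.00215) and the adaptor Grb2 (-0.34 ± 0.07, limma adjusted p = 0.0146). With *B. bifidum* 1 of 14 was higher and 7 lower, led by the exchange factor Rasgrp3 (-0.50 ± 0.07, limma adjusted p = 0.00416), Rasa1 (-0.67 ± 0.10, limma adjusted p = 0.00541) and the exchange factor Sos2 (-0.49 ± 0.08, limma adjusted p = 0.00542).

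**Figure D5:**
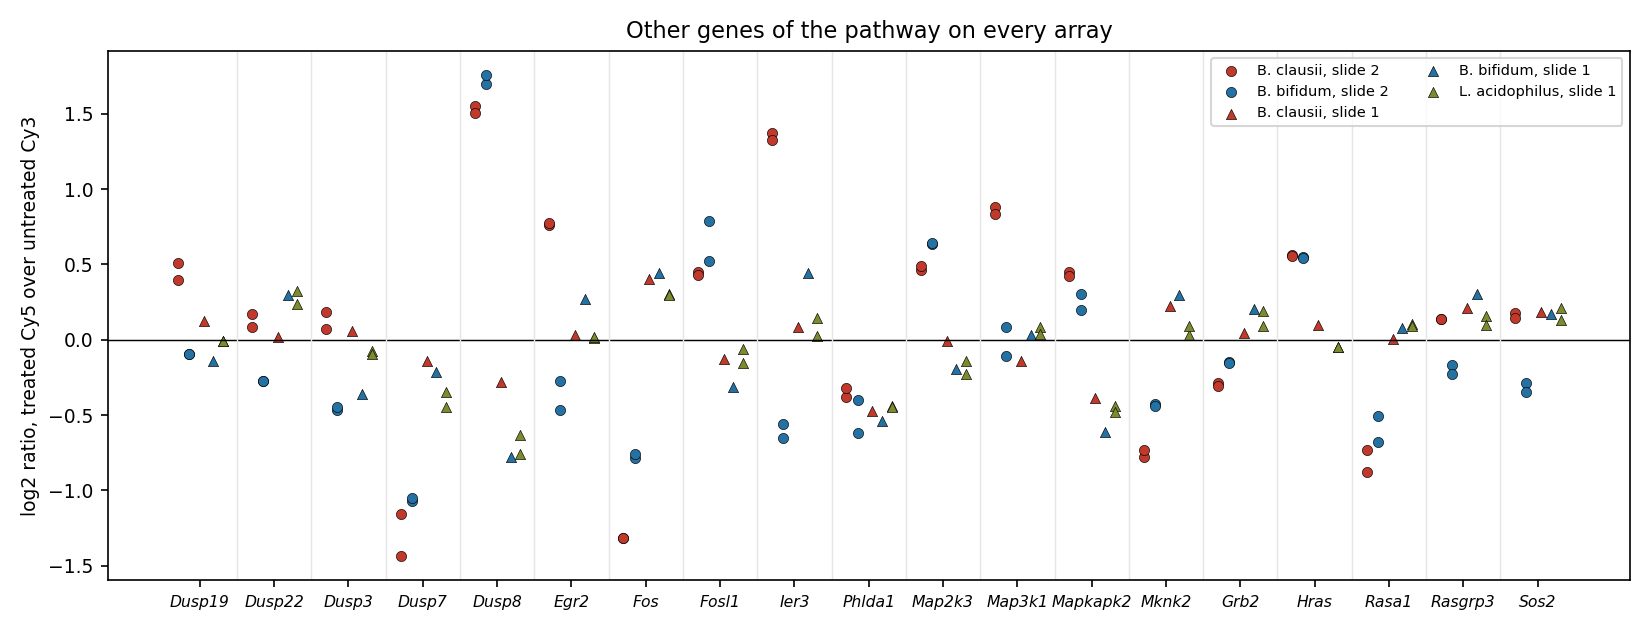
Log2 ratio of treated (Cy5) over untreated (Cy3) cells on each array for 19 further pathway genes, from left to right brakes, ERK-induced genes, kinases and receptor-to-Ras genes; circles are slide 2, triangles slide 1. Phlda1 lies below 0 on all 8 arrays, while Dusp8 lies above 1.5 on slide 2 and below 0 on slide 1.

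In the untreated channel the early-response gene Egr1 differed most among the named genes. Its Cy3 level was between 6.30 and 6.54 on slide 2, where it was not well above background on any array, against 11.25 to 12.81 on slide 1, at least 37.7-fold lower on slide 2 (limma adjusted p = 2.24e-05). Egr2 was lower (-1.70 ± 0.21 on the log2 scale, limma adjusted p = 0.000737) and Fos higher by 1.37 ± 0.09 (limma adjusted p = 3.56e-05), so early-response genes did not move together. In all, 2 of 12 ERK-induced genes were higher and 4 lower, where 15.9% of all genes were higher and 10.7% lower. Of the further brakes Dusp19 (0.80 ± 0.12) and Dusp8 (1.07 ± 0.18) were higher and Dusp14 (-0.52 ± 0.15) lower among 2 of 11 higher and 2 lower. Of the kinases Map2k6 (-1.97 ± 0.13) and Mapk3, which encodes an ERK (-0.91 ± 0.10), were lower and Map2k3 (1.42 ± 0.29) higher, among 2 of 25 higher and 3 lower. Of the receptor-to-Ras genes the phosphatase gene Ptpn11 (0.84 ± 0.12) and Rasgrp3 (0.88 ± 0.16) were higher and Sos2 (-0.78 ± 0.19) lower, among 2 of 15 higher and 3 lower.

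The genes whose ratio most resembled that of Dusp6 over the 8 arrays were Zbp1, a nucleic acid sensor, Klhl24 and LTO1, each with a Pearson r of 0.997 among 14907 genes with a value on every array. Zbp1 had log2 ratios of -1.57 and -1.62 with *B. clausii* and -0.50 and -0.56 with *B. bifidum* on slide 2, against 0.09 and 0.21 for those strains on slide 1 and 0.03 and 0.24 with *L. acidophilus*. The 8 points share 2 slides and 3 strains, and the likeness is a description of these arrays.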

How the data were processed

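The authors deposited the output of Agilent Feature Extraction, version 10.7.3.1 per the file headers and 10.5.1.1 per the submitters' processing notes. Its deposited median signals of spots and of their surroundings are intensity values on a linear scale. The deposited files also give log10 of red over green for each spot, and the separate deposited table repeats those log10 values to within 0.005 on every array. They also hold flags for outliers, saturation and signal above background.

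Files were read in R 4.3.3 with limma 3.58.1. The median signal was used in place of a planned mean signal, background was corrected with normexp (offset 50), ratios were normalized within arrays by loess with control spots at weight 0, outlier spots were removed and saturated ones kept, and spots of a probe were averaged. Of 41174 probes, the 28598 with a channel well above background on 2 or more arrays were kept. Accessions, without versions, were matched to RefSeq's GRCm38.p6 table, which names 21626 of the kept probes and 15203 genes, each by its brightest probe; the files name another genome build, so no gene coordinates are given beside the RefSeq promoter windows. Log2 ratios were fitted with lmFit and eBayes, by strain over 8 arrays and by strain and slide. Untreated Cy3 was quantile normalized between arrays and compared between slides. The lowest correlation between arrays over all kept probes was -0.033.

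The brake genes, the pathway lists and the rule naming up to 3 list genes with the smallest adjusted p in each comparison were chosen with earlier results of these data known. The fits were tested on simulated data. Same-numbered *B. clausii* and *B. bifidum* arrays deviated together (correlations of 0.41, 0.30 and 0.46), but so did differently numbered arrays of slide 2 (0.37 and 0.26), and *L. acidophilus* arrays did not (-0.058 to -0.090). The number of arrays limits the precision. Alternatives were other background, signal, normalization, filter, probe and eBayes choices, the deposited table, slide or replicate number as a block, each slide alone and each array left out; those on slide 2 were added after seeing the data.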

Additional observations from a re-analysis of the deposited data

Results flagged for a closer look

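Among 18 groups of 4 untreated Cy3 levels (9 genes on each slide), 8 held an array set apart from the other 3 by Dixon's test, where chance gives about 1 in 20. On slide 1 it was replicate 3 of *B. clausii* each time, the array with the fewest probes above background: its level was 12.66 for Dusp1, 13.07 for Dusp4, 8.57 for Dusp10, 6.6 for Dusp16, 6.15 for Spry1 and 7.38 for Spred1, against nearest values on the other arrays of 10.81, 12.54, 7.95, 7.87, 6.82 and 8.49. On slide 2 Dusp10 stood apart at 6.88 on replicate 1 of *B. clausii* (next 6.67) and Spry2 at 7.7 on replicate 2 of *B. bifidum* (next 8.01). The Cy3 spots of Dusp10, Dusp16, Spry1 and Spred1 were not well above background on the slide 1 array of *B. clausii*. The part of that array's quality in these levels was not tested.

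Ratios of the same strain that differed between slide 2 and slide 1 in limma's test of the difference were, with *B. clausii*, -0.65 for Dusp2, 0.91 for Dusp4, -1.58 for Dusp6 and 0.31 for Spry2. With *B. bifidum* they were -1.2 for Dusp2, -0.67 for Dusp6, -0.73 for Spred1 and -0.41 for Spry2. Slide and replicate number cannot be told apart.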

How the results depend on the processing

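Over the slide 2 arrays, the falls of Dusp6 with *B. clausii*, of Dusp2 with both strains and of Spred1 with *B. bifidum* kept direction and passed under all 9 alternatives run there. The other 5 values over untreated cells that passed did so under 6 to 8 of them, and the 6 differences between strains under 3 to 8. Leaving out an *L. acidophilus* array was not run there. It cannot move a slide 2 value but can change the spread behind its p. The rises of Dusp4, Spry2 and Dusp1 with *B. clausii* failed only with median centring. Under that setting 5092 of all genes fell and 138 rose with *B. clausii*, and 6503 fell and 25 rose with *B. bifidum*, so falls pass more readily than rises. In the fits over all arrays and of slide differences and untreated levels, 865 single values of a brake gene kept direction and call. With the sign kept, 51 came to pass and 23 no longer passed, while 87 changed sign, whether or not their call changed. On slide 2 these counts were 198, 7, 22 and 16. Dusp10, Dusp16 and Spry1 were near background on several arrays, which limits their ratios. Each slide 1 value of *B. clausii* or *B. bifidum* rests on 1 array, whose spread is taken from the other groups, and the slide difference of a strain could not be fitted without that array. The deposited table holds no Cy3 value. With the replicate number as a block, the count for *B. clausii* minus *B. bifidum* was 3, and it changed no other call of a brake gene than the 5 given in the report.

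The counts of all genes passing were 0 for *L. acidophilus*, 725 for *B. clausii*, 262 for *B. bifidum*, 4 for *B. clausii* minus *B. bifidum*, 5842 for the *B. clausii* slide difference, 4498 for the *B. bifidum* slide difference, 4046 for the untreated Cy3 level, 8521 for *B. clausii* on slide 2, 6133 for *B. bifidum* on slide 2 and 4765 for *B. clausii* minus *B. bifidum* on slide 2. With no background correction the number of genes passing was 2 for *B. clausii* minus *B. bifidum* and 252 for *B. clausii*. Signs changed there for Dusp1 -0.011 for the *B. clausii* slide difference, Dusp10 -0.037 for *B. bifidum*, Dusp10 0.0072 and Dusp16 -0.018 for *B. clausii* minus *B. bifidum*. Signs changed there for Dusp10 -0.030 for *B. clausii*. With the scanner's processed signals the number of genes passing was 1 for *B. bifidum*, 1828 for the *B. bifidum* slide difference, 0 for *B. clausii* minus *B. bifidum*, 2834 for *B. clausii* minus *B. bifidum* on slide 2 and 43 for *B. clausii*. It reversed brake genes to log2 values of Dusp1 0.10 and Dusp4 -0.012 for *B. bifidum* on slide 2, Dusp10 -0.50, Dusp16 0.12 and Spry2 -0.055 for *B. bifidum*, Dusp10 0.31 and Dusp16 -0.37 for *B. clausii* minus *B. bifidum*. Log2 values of opposite sign were Dusp10 -0.19 and Spred1 0.37 for *B. clausii*, Dusp4 0.0014 for *L. acidophilus*, Spry1 0.85 and Spry2 -0.15 for the *B. clausii* slide difference. With the authors' deposited table the number of genes passing was 3 for *B. bifidum*, 1907 for the *B. bifidum* slide difference, 0 for *B. clausii* minus *B. bifidum* and 71 for *B. clausii*. Reversed values were Dusp10 -0.50, Dusp16 0.12 and Spry2 -0.055 for *B. bifidum*, Dusp10 0.31 and Dusp16 -0.21 for *B. clausii* minus *B. bifidum*, Dusp10 -0.19 and Spred1 0.37 for *B. clausii*. Reversed values were Dusp16 -0.13, Spry1 0.54 and Spry2 -0.15 for the *B. clausii* slide difference, Dusp4 0.0014 for *L. acidophilus*. With median centring the number of genes passing was 3 for *B. bifidum*, 0 for the *B. bifidum* slide difference, 0 for *B. clausii* minus *B. bifidum*, 4 for *B. clausii* minus *B. bifidum* on slide 2, 0 for *B. clausii*, 5230 for *B. clausii* on slide 2, 38 for the *B. clausii* slide difference and 836 for the untreated Cy3 level. Reversed values were Dusp1 -0.54, Dusp4 -0.65, Spry1 -0.088 and Spry2 -0.20 for *B. bifidum*, Dusp1 -0.25 and Dusp16 0.035 for *B. clausii*, Dusp1 -0.41, Dusp10 0.10, Dusp16 0.094 and Spry1 -0.16 for *B. clausii* on slide 2. Reversed values were Dusp1 -0.48 and Dusp10 0.15 for the *B. clausii* slide difference, Dusp10 0.063, Dusp4 -0.90 and Spry1 -0.14 for *B. bifidum* on slide 2, Dusp10 0.045 and Spry1 -0.17 for the *B. bifidum* slide difference. Reversed values were Dusp4 0.40 for *L. acidophilus*, Spred1 -0.068 for the untreated Cy3 level, Spry1 0.15 for *B. clausii* minus *B. bifidum*. With the mean of a gene's probes the number of genes passing was 391 for *B. clausii* and 4 for *L. acidophilus*. Reversed values were Spred1 0.012 for *B. clausii*. With an intensity trend and robust eBayes the number of genes passing was 0 for *B. bifidum*, 1 for *B. clausii* minus *B. bifidum* and 1 for *B. clausii*. With the slide as a block the number of genes passing was 2124 for *B. bifidum*, 234 for *B. clausii* minus *B. bifidum*, 3833 for *B. clausii* and 417 for *L. acidophilus*. Reversed values were Dusp2 -0.41, Dusp4 0.18, Dusp6 -0.27 and Spred1 -0.23 for *L. acidophilus*, Dusp4 -0.050 and Dusp6 0.015 for *B. bifidum*, Spred1 0.067 for *B. clausii*. With the replicate number as a block the number of genes passing was 2267 for *B. bifidum*, 4330 for *B. clausii* and 502 for *L. acidophilus*. On slide 2 alone the number of genes passing was 6133 for *B. bifidum*, 4765 for *B. clausii* minus *B. bifidum* and 8521 for *B. clausii*. Reversed values were Dusp1 -0.034, Dusp10 -0.083, Dusp16 0.016 and Spry2 -0.079 for *B. bifidum*, Dusp10 0.075 and Dusp16 -0.033 for *B. clausii* minus *B. bifidum*, Dusp10 -0.0079 for *B. clausii*. On slide 1 alone the number of genes passing was 1908 for *B. bifidum*, 47 for *B. clausii* minus *B. bifidum* and 1848 for *L. acidophilus*. Reversed values were Dusp2 0.32, Dusp6 0.27 and Spred1 0.22 for *B. bifidum*, Dusp2 -0.24, Dusp4 -0.090, Spred1 -0.052, Spry1 0.17 and Spry2 -0.18 for *B. clausii* minus *B. bifidum*, Dusp2 0.086, Dusp4 -0.044, Dusp6 0.11 and Spred1 0.17 for *B. clausii*.

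Leaving out each array in turn gave counts of 0 to 2088 for *B. bifidum*, 3718 to 5858 for *B. bifidum* on slide 2, 0 to 2130 for *B. clausii* minus *B. bifidum*, 0 to 5479 for *B. clausii*, 0 to 59 for *L. acidophilus* and 2798 to 7993 for the untreated Cy3 level. Brake genes that changed sign when an array was left out ranged as follows: Dusp1 -0.034 to 0.088 for *B. bifidum*, Dusp1 -0.013 to 0.031 for the *B. clausii* slide difference, Dusp10 -0.083 to 0.10 for *B. bifidum*, Dusp10 -0.088 to 0.091 for *B. clausii* minus *B. bifidum*, Dusp10 -0.041 to 0.19 for *B. clausii* minus *B. bifidum* on slide 2, Dusp10 -0.042 to 0.074 for *B. clausii* and Dusp10 -0.12 to 0.11 for *B. clausii* on slide 2. Likewise, the ranges were Dusp10 -0.16 to 0.069 for the *B. clausii* slide difference, Dusp16 -0.14 to 0.016 for *B. bifidum*, Dusp16 -0.035 to 0.068 for *B. bifidum* on slide 2, Dusp16 -0.088 to 0.070 for *B. clausii* minus *B. bifidum*, Dusp16 -0.11 to 0.046 for *B. clausii* minus *B. bifidum* on slide 2, Dusp16 -0.10 to 0.063 for *B. clausii* on slide 2 and Dusp2 -0.086 to 0.53 for *B. clausii* minus *B. bifidum*. Likewise, the ranges were Dusp2 -0.011 to 0.11 for *L. acidophilus*, Dusp4 -0.0025 to 0.024 for *B. bifidum* on slide 2, Dusp4 -0.12 to 0.056 for *L. acidophilus*, Spred1 -0.11 to 0.038 for *B. clausii*, Spred1 -0.010 to 0.061 for *L. acidophilus*, Spry1 -0.086 to 0.054 for *B. clausii* minus *B. bifidum* and Spry2 -0.079 to 0.14 for *B. bifidum*. The cause of these changes was not tested.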
